A study of Rattus norvegicus with 12 samples.

Results

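The genes described here are 34 genes of fatty acid uptake and oxidation, chosen by name: enzymes and carriers that take up, release, activate, transport and oxidise fatty acids, with 4 neighbours of the pathway that act on pyruvate use, acyl-CoA hydrolysis and mitochondrial carriage. On the arrays 33 of the 34 had a probe set that names 1 gene, and all 33 were among the 10417 genes tested. Acaa1a had none and is not analysed further. Expression was measured in the gastrocnemius, the large muscle of the calf, in 12 rats (male, Wistar-Hannover), each with 1 Affymetrix array. All rats, in all 4 groups of 3, had the left sciatic nerve cut, which removes the motor supply of the muscle, so no innervated muscle stands among the groups. Nandrolone, an anabolic androgen, or vehicle was given for 7 days. The groups were nandrolone at day 35 and vehicle at day 35, with dosing begun 29 days after surgery, and nandrolone at day 7 and vehicle at day 7, with dosing begun on the day of surgery.

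Muscle takes fatty acids from circulating lipoproteins through lipoprotein lipase (Lpl) at the capillary wall and carries them across the membrane with Cd36 and through the cytosol with Fabp3. Acyl-CoA synthetases activate them, the carnitine shuttle of Cpt1b, Slc25a20 and Cpt2 moves them into mitochondria, and the chain is then shortened in cycles of dehydrogenation, hydration, oxidation and thiolysis whose electrons pass through the electron transfer flavoprotein to the respiratory chain. In muscle this pathway is known to be most abundant in oxidative fibres, and Pdk4 and Ucp3 are known to rise when muscle shifts to fat as its fuel.

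Promoter sequence was available for 27 of the 34 genes from RefSeq on the rat GRCr8 assembly. AGGTCA, the core motif bound by many nuclear receptors, occurred on either strand in the promoter window of 4 of these 27 genes (14.8%), against 14.1% of 33469 rat promoters. AGAACA, a core motif of androgen and glucocorticoid receptor elements, occurred in 2 of 27 (7.41%), against 17.5% of all promoters. The windows searched were the 250 bases before the start of each gene. The 250 bases before the start are shown for Ucp3, one of the 2 genes that passed a test below (the promoter table holds none for the other, Lpl), and for Cd36, the gene with the highest nandrolone difference at day 35. Capitals mark AGGTCA. Ucp3 lies at chr1:164227660-164227909 on the plus strand and Cd36 at chr4:18246332-18246581 on the plus strand.
Ucp3: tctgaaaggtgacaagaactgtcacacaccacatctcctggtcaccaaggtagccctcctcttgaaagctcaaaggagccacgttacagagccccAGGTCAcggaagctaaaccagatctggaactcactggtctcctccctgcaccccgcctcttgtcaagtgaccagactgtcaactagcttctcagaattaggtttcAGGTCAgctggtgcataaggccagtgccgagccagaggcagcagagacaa
Cd36: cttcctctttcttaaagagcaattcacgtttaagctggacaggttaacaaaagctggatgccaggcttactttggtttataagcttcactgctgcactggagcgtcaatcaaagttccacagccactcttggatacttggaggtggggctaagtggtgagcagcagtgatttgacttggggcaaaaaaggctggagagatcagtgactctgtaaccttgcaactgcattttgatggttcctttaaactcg
The Ucp3 window held AGGTCA at 155 and at 50 bases before the start, and the Cd36 window held none. A match of these letters is a description of the sequence and not of a bound site.

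Values below are log2 signals: 16 was added to the deposited intensity, log2 was taken and the arrays were quantile normalized, and the change of dim genes is understated. A gene passed the test at a Benjamini-Hochberg adjusted p under 0.05 over 18625 tested probe sets (limma). With 3 rats against 3, an exact permutation test cannot go below p = 0.1. Each p-value measures the spread between these rats, and age and time since the nerve was cut cannot be told apart. Level differences in a whole muscle can come from fewer cells of a type or from less RNA per cell, which bulk arrays cannot tell apart.

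The tissue label was borne out by its markers: the 10 tested skeletal muscle markers lay between the 99.8 and 100 percentile of mean signal. The percentile was taken among all 31042 probe sets other than controls. The array of nandrolone day 35 replicate 3 stood apart from the rest. Its median deposited signal was 111, against 44.8 to 63.5 on the other 11 arrays, and its mean Pearson r with the 2 others of its group was 0.900. Summed signals of 7 adipocyte markers were 15190 there and 2071 to 3668 on the others (Lep and Cidec fell below the signal filter). Cidea, among these 7, went the other way, with a log2 signal of 7.80 there and 8.59 to 9.89 on the others. The sums of 7 smooth muscle and pericyte markers were 14494 there and 1809 to 2891 elsewhere. Those of 9 endothelial markers were 5625 there and 1933 to 2923 elsewhere. Most results are therefore given with and without this array where it bears on them. A second array, nandrolone day 7 replicate 3, was highest in 1 marker list only: the summed signal of 10 macrophage markers was 9921 there, against 1999 to 5935 on the other 11 arrays. Results that rest on it are also given without it.

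After quantile normalization, 22 of the 33 genes (66.7%) had their lowest value of all 12 arrays on nandrolone day 35 replicate 3. It was the lowest array for 28% of all tested genes. In the deposited signals, where this array was the brightest, many of these genes were not lowest there. Acadm was 2938.7 there and 2320 on vehicle day 35 replicate 2, while Fabp3, at 1310.1, was lowest there in both. The values below in this paragraph are also normalized. The median of the 33 gene-centred signals was -0.53 on that array and between -0.17 and 0.32 on the other 11. The next array down was nandrolone day 7 replicate 3 at -0.17, and the highest was nandrolone day 35 replicate 2 at 0.32, where 9 of the 33 genes peaked (27.3%, against 5.26% of all tested genes). The nandrolone day 35 group thus held both the lowest and the highest array. The median SD of the 33 genes was 0.49 at nandrolone day 35, 0.20 at vehicle day 35, 0.26 at nandrolone day 7 and 0.12 at vehicle day 7, beside 0.32, 0.20, 0.24 and 0.16 for all tested genes in the same groups.

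**Figure D1:**
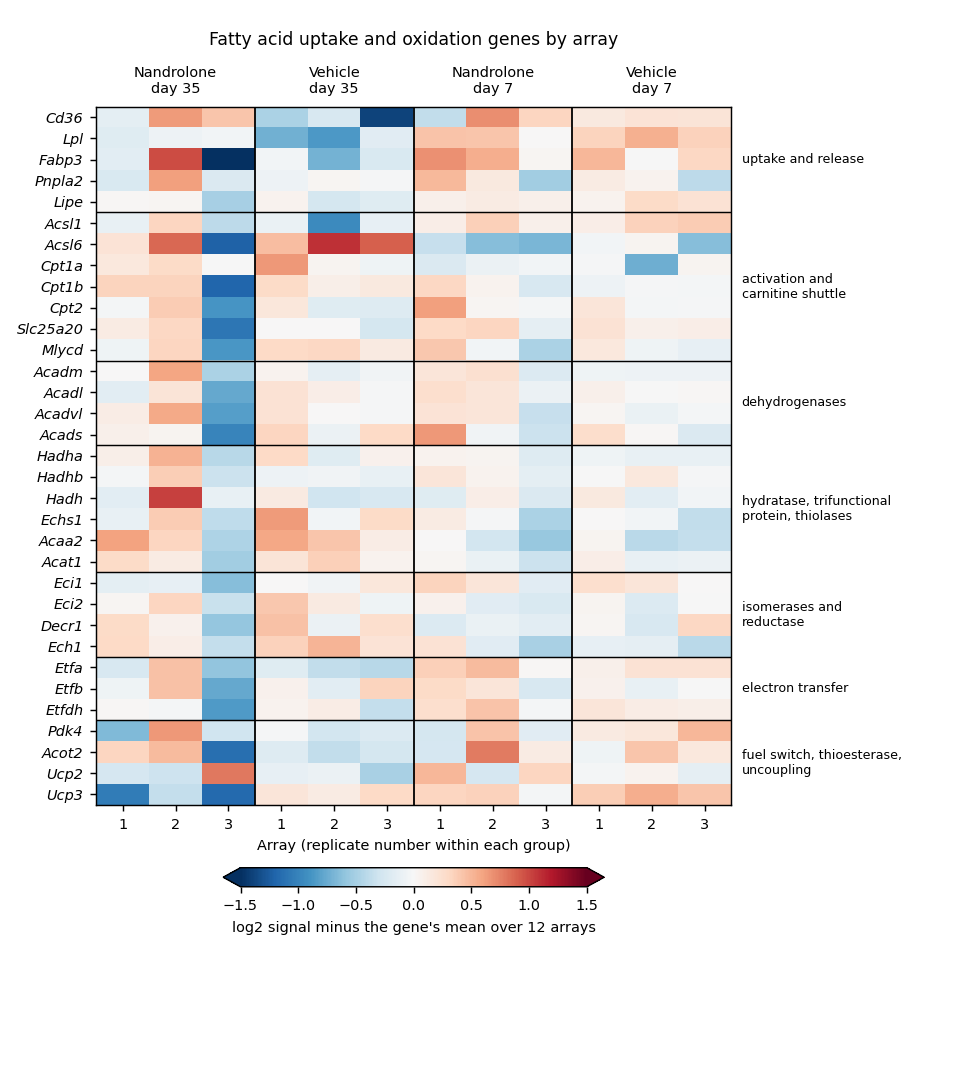
Signal of each of the 33 genes on each of the 12 arrays, as log2 signal minus the gene's mean over all arrays (colour; red above and blue below the mean), with genes grouped by role and arrays by group. Signals are quantile normalized. The column of nandrolone day 35 replicate 3 is blue for most genes, and after this normalization it is the lowest array for 22 of 33.

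The score of the 33 genes followed that of 16 other mitochondrial genes, such as those of the citrate cycle and respiratory chain, across arrays. Pearson r was 0.93 over 12 arrays and 0.88 without nandrolone day 35 replicate 3. Both scores come from the same arrays, so this is a description. Among the genes themselves the median pairwise r was 0.45 over 12 arrays and 0.27 over 11. Acadvl, the very long chain dehydrogenase, followed the median of the other 32 most closely over 12 arrays (r = 0.96), while Lpl (0.08), Cd36 (-0.06) and Ucp2 (-0.59) did not follow it. Without nandrolone day 35 replicate 3 r was 0.91 for Acadvl, 0.10 for Lpl, 0.21 for Cd36 and -0.12 for Ucp2. Ucp3 then went from 0.47 to -0.06 and Decr1 from 0.47 to -0.03.

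**Figure D2:**
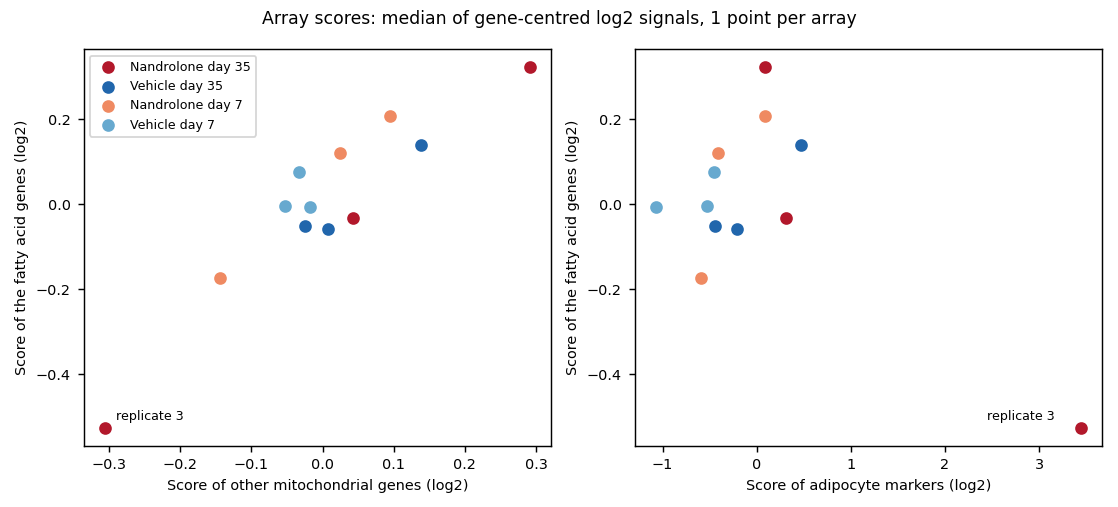
Each point is 1 array. The y axis is the median of the gene-centred log2 signals of the 33 fatty acid genes, and the x axis is the same measure for 16 other mitochondrial genes (left) or 7 adipocyte markers (right). The array of nandrolone day 35 replicate 3 lies apart at -0.53 on the y axis, and its adipocyte score is 3.45.

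The first comparison asked how these genes changed with time after the nerve was cut. In vehicle rats 1 of 33 genes, Lpl, passed the test between day 35 and day 7, against 4.75% of all 10417 tested genes. The median difference of the 33 genes was 0.03, against 0.00 for all tested genes, with 17 above 0 and 16 below. In nandrolone rats 1 gene, Ucp3, passed, against 0.768% of all genes, and the median was -0.11 (0.13 without nandrolone day 35 replicate 3 and -0.25 without nandrolone day 7 replicate 3), against -0.03 over all genes. On the mean of both treatments 2 genes passed, Lpl and Ucp3, against 12.1% of all genes.

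Lpl, which frees fatty acids from lipoprotein triglyceride, fell between days in vehicle rats. Its signals were 11.38, 11.24 and 11.94 on the vehicle day 35 arrays, against 12.43, 12.64 and 12.45 on the vehicle day 7 arrays. The 2 days did not overlap. The difference was -0.99 ± 0.18 (SE, adjusted p = 0.010, limma), a fold of 0.504. The adjusted p was 0.0057 without nandrolone day 35 replicate 3, but 0.055 without vehicle day 7 replicate 2 and 0.065 without normalization between arrays, which both end the call.

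In nandrolone rats Lpl signals were 11.93, 12.03 and 12.06 at day 35, against 12.53, 12.52 and 12.11 at day 7. All 3 day 35 arrays were lower, but the difference of -0.38 ± 0.18 did not pass (adjusted p = 0.34). Over both treatments the 6 arrays of day 35 lay below the 6 arrays of day 7, with a mean difference of -0.69 ± 0.12 (adjusted p = 0.0048), and -0.70 (adjusted p = 0.0047) without nandrolone day 35 replicate 3. Without nandrolone day 7 replicate 3 the difference was -0.52 in nandrolone rats (adjusted p = 0.23) and -0.76 on the mean (adjusted p = 0.0048). The difference between the treatments in this change, the interaction, was 0.61 ± 0.25 with an unadjusted p of 0.029 and an adjusted p of 0.93, so a different change under nandrolone was not established. The interaction was 0.58 without nandrolone day 35 replicate 3 and 0.47 without nandrolone day 7 replicate 3, and did not pass.

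Ucp3, a mitochondrial carrier of skeletal muscle, fell in nandrolone rats. Its signals were 9.03, 9.72 and 8.92 at nandrolone day 35, against 10.41, 10.43 and 10.05 at nandrolone day 7. The days did not overlap, and the difference was -1.07 ± 0.20 (adjusted p = 0.038, limma), a fold of 0.475. Without nandrolone day 35 replicate 3 it was -0.92 (adjusted p = 0.059) and did not pass. The call also ended without nandrolone day 35 replicate 1 (adjusted p = 0.082), without nandrolone day 7 replicate 1, 2 or 3 (adjusted p = 0.14, 0.17 and 0.053) and without normalization between arrays (adjusted p = 0.29).

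In vehicle rats Ucp3 was at 10.27, 10.21 and 10.39 on day 35, against 10.45, 10.62 and 10.50 on day 7. All day 35 arrays were lower by a small margin, with a difference of -0.24 ± 0.20 (adjusted p = 0.52). The interaction was -0.84 ± 0.28 with an unadjusted p of 0.012 and an adjusted p of 0.93. It was -0.68 without nandrolone day 35 replicate 3 and -0.96 without nandrolone day 7 replicate 3, and did not pass. The mean over both treatments was -0.66 ± 0.14 (adjusted p = 0.012), and -0.58 (adjusted p = 0.013) without the array that stands apart, while without normalization between arrays it did not pass (adjusted p = 0.10). Without nandrolone day 7 replicate 3 this mean was -0.72 (adjusted p = 0.013, limma).

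A second, similarly bright Ucp3 probe set gave 9.36, 9.84 and 8.71 at nandrolone day 35, against 10.71, 10.54 and 10.33 at nandrolone day 7. Its arrays did not overlap either, and its difference was -1.22 ± 0.28 (adjusted p = 0.072). On the mean of both treatments its difference was -0.80 ± 0.19 (adjusted p = 0.020). Both probe sets therefore differed in the same direction.

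**Figure D3:**
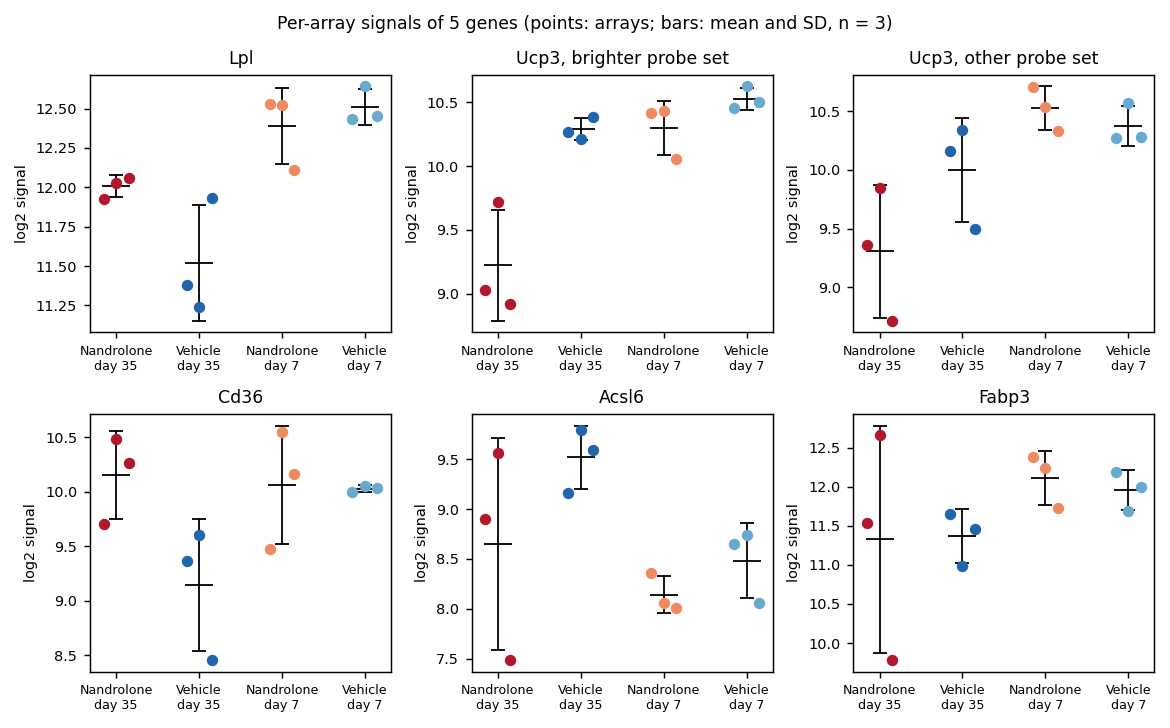
Log2 signal of Lpl, Ucp3 (2 probe sets), Cd36, Acsl6 and Fabp3 on each array (points), with the mean and SD of each group (bars, n = 3). Lpl lies lowest in vehicle rats at day 35, and Ucp3 lies lowest in nandrolone rats at day 35.

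The uptake and release genes other than Lpl did not pass between days. Cd36, the membrane fatty acid translocase, gave 9.36, 9.60 and 8.46 at vehicle day 35, against 9.99, 10.05 and 10.04 at vehicle day 7. The days did not overlap and the difference was -0.89 ± 0.32 (adjusted p = 0.12). Fabp3, the cytosolic fatty acid binding protein of heart and oxidative muscle, gave 11.65, 10.99 and 11.46 against 12.20, 11.69 and 12.003 on the same arrays, also without overlap, with a difference of -0.59 ± 0.51 (adjusted p = 0.53).

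The summed signals of 7 slow oxidative fibre markers varied more within day 35 than within day 7. They were 39264, 66524 and 16662 at nandrolone day 35, 34107, 19540 and 49499 at vehicle day 35, 54296, 44736 and 44810 at nandrolone day 7 and 42291, 49246 and 44815 at vehicle day 7, in replicate order. Fabp3 on the nandrolone arrays was 11.54, 12.67 and 9.78 at day 35 and 12.38, 12.24 and 11.73 at day 7. Its order among the 3 arrays was that of the sums at nandrolone day 35, not in the other 3 groups, and the opposite one at vehicle day 7. The part of fibre type in the Fabp3 values was not tested. Summed signals of the 10 macrophage markers were 1999 to 2544 at vehicle day 35, against 3525 to 4552 at vehicle day 7, and 2402 to 5935 at nandrolone day 35, against 2682 to 9921 at nandrolone day 7, and their part in the differences between days was not tested.

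Among the activating enzymes and the carnitine shuttle none of 7 passed between days at its brightest probe set. Acsl6, an acyl-CoA synthetase, gave 9.16, 9.79 and 9.60 at vehicle day 35, against 8.65, 8.74 and 8.06 at vehicle day 7. Its difference was 1.03 ± 0.41 (adjusted p = 0.15), and 1.03 with adjusted p = 0.019 when nandrolone day 35 replicate 3 was left out of the shared spread. Acsl1, the main acyl-CoA synthetase of muscle, lay lower, with 11.36, 10.50 and 11.34 against 11.56, 11.81 and 11.84, a difference of -0.67 ± 0.23 (adjusted p = 0.11). The 2 synthetases therefore pointed in opposite directions in vehicle rats, both without overlap of arrays.

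Cpt1b, the muscle form of the enzyme that starts the carnitine shuttle, gave 12.21, 12.02 and 12.08 at vehicle day 35, against 11.85, 11.91 and 11.90 at vehicle day 7. The arrays did not overlap, but the difference of 0.22 ± 0.31 did not pass (adjusted p = 0.72). In the oxidation cycle, Acadm, the medium chain dehydrogenase, gave 11.68, 11.49 and 11.57 against 11.56, 11.55 and 11.55, overlapping, with a difference of 0.03 ± 0.22 (adjusted p = 0.96). Hadha, the alpha subunit of the trifunctional protein, gave 11.26, 10.78 and 11.03 against 10.90, 10.86 and 10.85, a difference of 0.15 ± 0.21 (adjusted p = 0.70).

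Acaa2, the mitochondrial thiolase, and Ech1, an isomerase for unsaturated chains, were higher on all 3 vehicle day 35 arrays than on any vehicle day 7 array. For Acaa2 the values were 11.98, 11.82 and 11.51 against 11.44, 11.003 and 11.05, and for Ech1 11.54, 11.71 and 11.40 against 11.07, 11.06 and 10.79. The differences were 0.61 ± 0.25 for Acaa2 (adjusted p = 0.17) and 0.58 ± 0.20 for Ech1 (adjusted p = 0.11). With nandrolone day 35 replicate 3 left out of the fit they were 0.61 (adjusted p = 0.048) and 0.58 (adjusted p = 0.047), so Lpl, Acsl6, Acaa2 and Ech1 then passed, 4 of 33 against 10.1% of all genes.

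Etfa, a subunit of the electron transfer flavoprotein, gave 10.58, 10.39 and 10.34 at vehicle day 35, against 10.84, 10.98 and 10.98 at vehicle day 7, without overlap, a difference of -0.49 ± 0.22 (adjusted p = 0.21). Pdk4, the kinase that switches off pyruvate dehydrogenase, gave 11.36, 11.09 and 11.17 against 11.51, 11.54 and 11.87, also without overlap, a difference of -0.43 ± 0.28 (adjusted p = 0.39). In all, vehicle arrays did not overlap between days for 15 of 33 genes, 4 higher and 11 lower, against 35.9% of all tested genes (17.8% higher and 18.1% lower). The other lower ones were Acot2, Slc25a20, Lipe and Hadhb, with differences of -0.45, -0.21, -0.32 and -0.13, beside Ucp3 at -0.24.

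By role, the differences between days in vehicle rats were narrowest for the 4 chain-length dehydrogenases, Acads, Acadm, Acadl and Acadvl, which take the first oxidation step, at 0.03 to 0.16. They ran from -0.13 to 0.61 for the 6 tested genes of hydration, the trifunctional protein and thiolysis, and from -0.11 to 0.58 for Eci1, Eci2, Decr1 and Ech1, which prepare unsaturated chains for oxidation. For Etfa, Etfb and Etfdh, which pass the electrons on, they ran from -0.49 to 0.10. No gene of these 4 roles passed over all arrays in vehicle or nandrolone rats.

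Dimmer probe sets of some genes gave other directions or sizes. The brightest Lipe probe set differed by -0.32 between days in vehicle rats, while a second one rose by 1.64 ± 0.38 (adjusted p = 0.028), and a second Hadha probe set rose by 1.05 ± 0.23 (adjusted p = 0.025), beside 0.15 at the brightest. On the mean of both treatments Acaa2 differed by 0.52 at its brightest probe set (adjusted p = 0.073) and fell by 0.80 at another (adjusted p = 0.021). On the same mean Acsl1 differed by -0.46 at its brightest probe set (adjusted p = 0.088) and by -0.66 ± 0.18 at another (adjusted p = 0.033). In vehicle rats Acot2, at -0.45, differed by 0.11 at another probe set and by -0.30 at a dimmer one, both with overlap. A second Pdk4 probe set differed by -1.32 ± 0.54 there (adjusted p = 0.16), with overlap. The reported values of these genes therefore hold for the brightest probe set only.

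**Figure D4:**
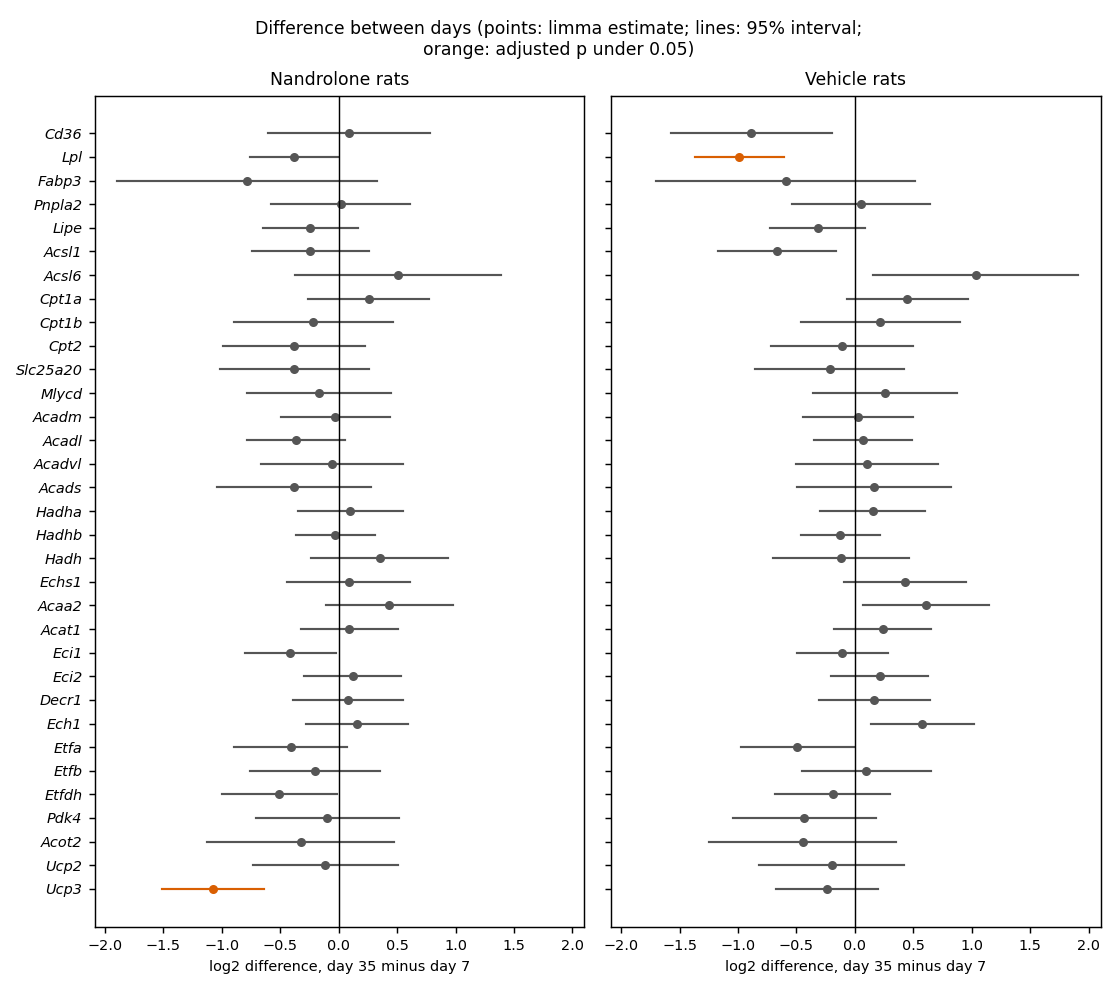
Difference in log2 signal, day 35 minus day 7, for each of the 33 genes in nandrolone rats (left) and vehicle rats (right), as the limma estimate (points) with its 95% interval (lines). Orange marks an adjusted p under 0.05, which Ucp3 reached in nandrolone rats (-1.07) and Lpl in vehicle rats (-0.99).

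The second comparison asked what nandrolone did at each day. No gene of the 33 passed against vehicle at day 7 or at day 35, and none of the 18625 probe sets did on either day (0%, limma), with 331 probe sets (1.78%) at an unadjusted p under 0.05 at day 7 and 1590 (8.54%) at day 35. At day 7 the median difference of the 33 genes was 0.03, against 0.01 for all tested genes, and none of the 33 had an unadjusted p under 0.05, against 1.5% of all genes. All 33 differences lay between -0.34 and 0.22. Without nandrolone day 7 replicate 3 the median was 0.14 and again no gene passed. These values hold for the brightest probe sets. A dimmer Lipe probe set differed by 1.22 ± 0.38 and a dimmer Hadha one by 0.59 ± 0.23 at day 7, both without overlap. Their unadjusted p was 0.0065 and 0.026 (limma), and neither passed. The other further probe sets tested for the 33 genes had an unadjusted p of 0.18 or more there.

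At day 35 the median difference of the 33 genes was -0.12, against -0.04 over all genes, and 0.16 without nandrolone day 35 replicate 3, against -0.02 over all genes. With all 12 arrays but no normalization between them the median was 0.15, so its sign depended on that array and on the normalization. Nandrolone and vehicle arrays did not overlap for 3 of 33 genes, Cd36 higher and Ucp3 and Eci1 lower, against 11.8% of all tested genes (4.44% higher and 7.37% lower). An unadjusted p under 0.05 was reached by 3 of 33 genes, Ucp3, Cd36 and Lpl, against 7.87% of all genes. These values share arrays with the differences between days given above. For Ucp3 in nandrolone rats the shared arrays are those of nandrolone day 35. For Lpl and Cd36 in vehicle rats they are those of vehicle day 35. The values at day 35 are therefore not independent of those between days.

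Ucp3 had the smallest p. Its signals were 9.03, 9.72 and 8.92 under nandrolone at day 35, against 10.27, 10.21 and 10.39 under vehicle at day 35. The groups did not overlap, with a difference of -1.07 ± 0.20 (unadjusted p = 0.00016, adjusted p = 0.27). Without nandrolone day 35 replicate 3 the difference was -0.91 (adjusted p = 0.32). At day 7 the Ucp3 values were 10.41, 10.43 and 10.05 under nandrolone, against 10.45, 10.62 and 10.50 under vehicle, a difference of -0.23 ± 0.20 (adjusted p = 1).

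The second Ucp3 probe set gave 9.36, 9.84 and 8.71 under nandrolone, against 10.16, 10.34 and 9.50 under vehicle at day 35. Here the groups overlapped, and the difference was -0.69 ± 0.28 (adjusted p = 0.56). The direction was the same at both probe sets at day 35, and neither passed. At day 7 the second probe set differed by 0.15 ± 0.28, opposite in direction to the first, and did not pass.

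Cd36 was higher under nandrolone at day 35, with 9.70, 10.48 and 10.26, against 9.36, 9.60 and 8.46 under vehicle. The groups did not overlap. The difference was 1.01 ± 0.32, with a 95% interval from 0.32 to 1.70, and did not pass (adjusted p = 0.56). Lpl signals were 11.93, 12.03 and 12.06 under nandrolone, against 11.38, 11.24 and 11.94 under vehicle, a difference of 0.49 ± 0.18 (adjusted p = 0.56), and vehicle replicate 3 lay just above the lowest nandrolone array, so these groups overlapped. Adipocytes also express both genes and endothelium expresses Cd36, and the marker sums of both cell types were highest on nandrolone day 35 replicate 3. Macrophages also express Cd36 and Lpl, and 9 of 10 macrophage markers were above 0 in this comparison, with a median difference of 0.60 (0.28 without that array), 4 of them without overlap and none called. The part of these cell types was not tested. Without that array the difference was 0.95 for Cd36 and 0.46 for Lpl.

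Without the array that stands apart, the day 35 difference kept its sign in 20 of 33 genes and turned in 13. Cpt1b gave 12.27, 12.26 and 10.74 under nandrolone, against 12.21, 12.02 and 12.08 under vehicle, and its difference was -0.34 ± 0.31 with that array and 0.16 without it. Fabp3 gave 11.54, 12.67 and 9.78 against 11.65, 10.99 and 11.46, a difference of -0.04 ± 0.51, and 0.74 without the array. In both genes the last nandrolone array was the lowest of all 12.

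Acadm gave 11.63, 12.21 and 11.15 against 11.68, 11.49 and 11.57, a difference of 0.09 ± 0.22. Hadha gave 11.06, 11.49 and 10.55 against 11.26, 10.78 and 11.03, a difference of 0.01 ± 0.21. Acsl1 gave 11.34, 11.78 and 11.07 against 11.36, 10.50 and 11.34, a difference of 0.33 ± 0.23, and Pdk4 gave 10.71, 12.03 and 11.08 against 11.36, 11.09 and 11.17, a difference of 0.06 ± 0.28. In these 4 genes the groups overlapped and no adjusted p was below 0.62. Without nandrolone day 35 replicate 3 the differences were 0.34 for Acadm, 0.25 for Hadha, 0.49 for Acsl1 and 0.16 for Pdk4, and none passed.

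By role, medians at day 35 changed sign without that array in 4 of 7 roles. The median difference of the 4 dehydrogenases was -0.23 over all arrays and 0.09 without nandrolone day 35 replicate 3. For the 7 genes of activation and the carnitine shuttle it was -0.14 and 0.16, and for the 3 electron transfer genes -0.21 and 0.11. For the 6 genes of hydration, the trifunctional protein and thiolysis it was -0.10 and 0.17. The uptake and release genes were positive both ways, at 0.08 and 0.46, as were Pdk4, Acot2, Ucp2 and Ucp3 together, at 0.11 and 0.06. The 4 genes for unsaturated chains kept a negative median, at -0.31 and -0.09, and Eci1, whose arrays did not overlap, differed by -0.35 ± 0.18 (adjusted p = 0.57) and by -0.18 without that array.

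**Figure D5:**
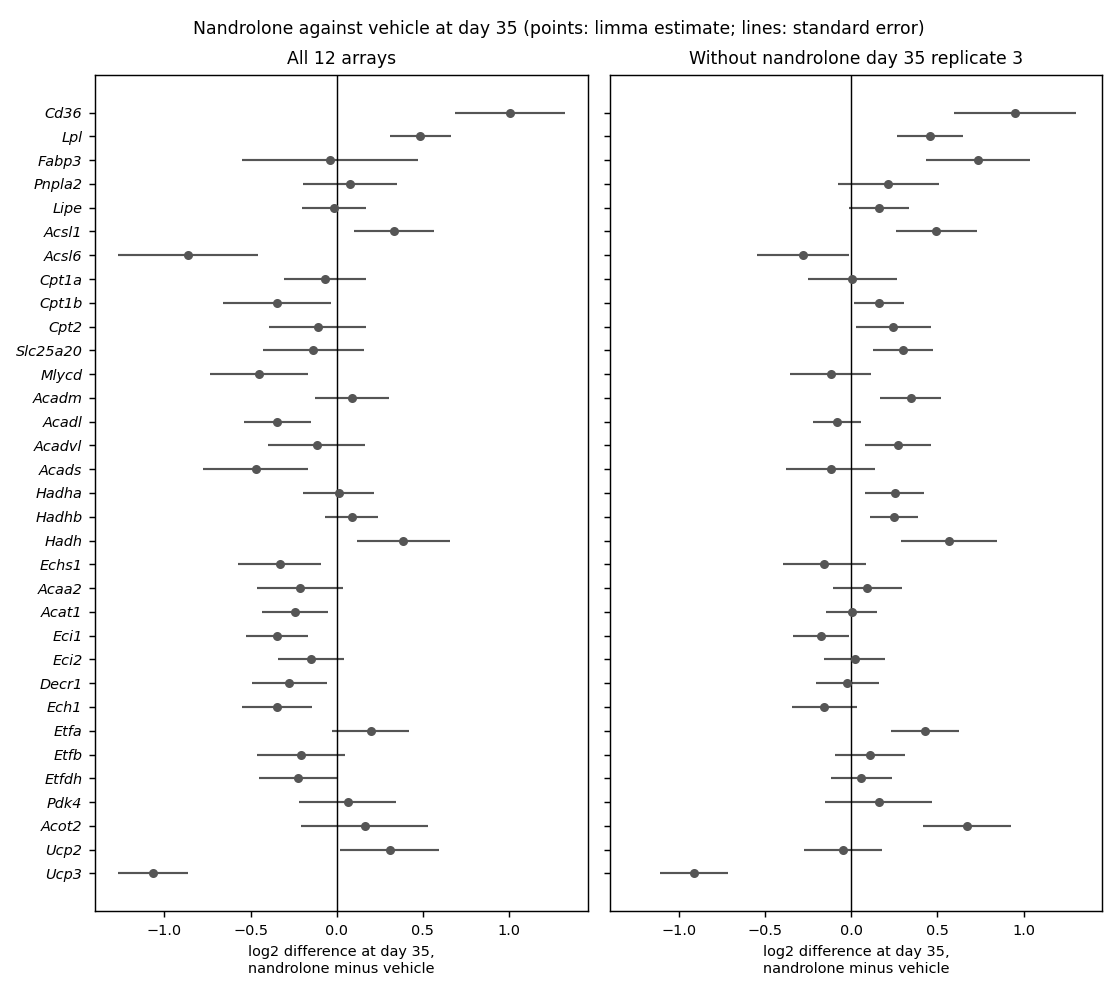
Difference in log2 signal at day 35, nandrolone minus vehicle, for each of the 33 genes, as the limma estimate (points) with its standard error (lines), over all 12 arrays (left) and without nandrolone day 35 replicate 3 (right). The median of the 33 differences is -0.12 on the left and 0.16 on the right, and Ucp3 and Cd36 lie farthest from 0 in both panels.

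The actin control ratio of 3' to 5' signal, a sign of RNA quality, was 2.57, 2.12 and 1.90 on the nandrolone day 35 arrays, against 3.13, 2.68 and 3.71 on the vehicle day 35 arrays, without overlap. On the vehicle day 7 arrays this ratio was 2.81, 2.11 and 2.25, mostly below vehicle day 35 but with overlap. On the nandrolone day 7 arrays it was 2.79, 2.29 and 2.08, overlapping nandrolone day 35. Its part in the differences at day 35 or between days was not tested. On the mean of both days no gene of the 33 passed between nandrolone and vehicle (0% of probe sets, 889 or 4.77% at an unadjusted p under 0.05), and the interaction of nandrolone and day called none (0%, 745 or 4% unadjusted). The mean differences were -0.65 ± 0.14 for Ucp3 and 0.52 ± 0.23 for Cd36 (adjusted p = 0.86 for each). At the second Ucp3 probe set the mean difference was smaller, at -0.27 ± 0.19 (adjusted p = 0.86, limma).

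Of 76 further genes listed for fatty acid handling, 65 were tested, and 5 passed between days in vehicle rats, 3 higher and 2 lower, against 4.75% of all genes. Without nandrolone day 35 replicate 3 it was 4 higher and 2 lower, against 10.1% of all genes. Ppargc1a, a coactivator of mitochondrial genes, was then added (0.71, adjusted p = 0.038). Klf15, a transcription factor of muscle lipid and amino acid use, rose with 10.82, 10.75 and 10.62 at vehicle day 35, against 9.87, 9.70 and 9.54 at vehicle day 7, a difference of 1.02 ± 0.19 (adjusted p = 0.011). Prkag3, the muscle gamma subunit of AMP-activated kinase, rose by 1.02 ± 0.23 (adjusted p = 0.024), and Nrip1, a corepressor of oxidative genes, by 0.90 ± 0.21 (adjusted p = 0.029). None of these 3 is an enzyme of the oxidation cycle.

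Vldlr, a receptor that binds lipoproteins beside Lpl, fell with 8.66, 8.51 and 9.17 at vehicle day 35, against 9.90, 9.82 and 10.15 at vehicle day 7, a difference of -1.18 ± 0.29 (adjusted p = 0.034). Adipor1, an adiponectin receptor, fell by 0.47 ± 0.12 (adjusted p = 0.039). On the mean of both treatments 7 of 65 passed, with Klf15, Nrip1, Prkag3 and Mgll, which cleaves monoacylglycerol, higher and Adipor1, Vldlr and Gpihbp1, which anchors Lpl at the capillary, lower (differences of 0.70, 0.75, 0.60, 0.79, -0.42, -0.75 and -0.54). The background for that count was 12.1% of all genes. Without nandrolone day 35 replicate 3 it was 6 higher and 3 lower, against 14.4% of all genes. Mgll then no longer passed (0.73, adjusted p = 0.060). Over all arrays none of the 65 passed between nandrolone and vehicle.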

How the data were processed

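The deposited table holds linear signal intensities per probe set, made by the authors with MAS5 per the submitters' processing notes; its version and scaling are not given in the sources used here. A second table held 12 columns that nothing ties to a sample, and it was left aside. From the 31099 probe sets, 57 controls were left out, 16 was added to the intensities the authors deposited, log2 taken and arrays quantile normalized. The 40% with the lowest mean were then left out, which leaves 18625. Limma 3.58.1 in R 4.3.3 fitted 4 group means with an intensity trend and 7 contrasts, with p-values adjusted by Benjamini-Hochberg across the 18625; the fit was also tested on simulated data. A gene is its brightest single-gene probe set, with symbols updated through RefSeq. Genes given with every array value are those called, those with the smallest p in a contrast and a fixed set (Cpt1b, Cd36, Lpl, Fabp3, Pdk4, Ucp3, Acadm, Hadha, Acsl1), others by non-overlap. The genes, lists and tests were chosen with earlier results of these data known. Equal replicate numbers correlated above 0.1 in every pair only between the nandrolone groups (r = 0.16, 0.26 and 0.42). Array number, 3 per group, limits the precision. No 2 arrays were identical. Alternatives changed the pseudocount, filter, normalization, trend, weights, block, threshold, groups fitted, probe set rule and replicates; leaving nandrolone day 35 replicate 3 out before normalization was chosen after seeing the data.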

Additional observations from a re-analysis of the deposited data

How the results depend on the processing

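Of the 4 calls among the 33 genes, Lpl passed in 19 of 21 alternatives in vehicle rats (not without normalization between arrays, adjusted p = 0.065, or without vehicle day 7 replicate 2, 0.055) and in 25 of 25 on the mean of both treatments. Ucp3 passed in 11 of 20 in nandrolone rats, where adjusted p reached 0.37 when only the 2 groups were fitted, and in 24 of 25 on the mean of both treatments (0.10 without normalization). No alternative reversed these 4 differences. Genes called between days in vehicle rats numbered 0 without normalization, 8 with array weights, 5 with only the 2 groups fitted and 4 with nandrolone day 35 replicate 3 (the outlying array) left out before normalization, and 0 to 4 with 1 array left out. The matching probe set counts were 192, 5274, 2544, 2034 and 178 to 2030, with 2061 at an adjusted p of 0.10. In nandrolone rats the genes called fell to 0 without normalization, without trend, with only the 2 groups and without the outlying array before normalization, and were 0 to 1 with 1 array left out; probe sets numbered 15 without normalization, 59 without trend, 0 with only the 2 groups, 73 unfiltered, 293 weighted, 291 at 0.10 and 0 to 264 with 1 array left out. On the mean of both treatments the genes called were 9 weighted, 6 at 0.10, 4 with the mean of probe sets, 5 without the outlying array before normalization and 2 to 5 with 1 array left out; probe sets numbered 953 without normalization, 4570 weighted, 3695 at 0.10 and 1355 to 2680. With the replicate number as a block 3 genes were called in vehicle rats and 4 on the mean of both treatments, and no other call changed. No matching probe set count is given for the block. On the mean of both treatments none is given for the mean of probe sets or for the outlying array left out before normalization. Those gene counts were therefore not compared with all genes. Between nandrolone and vehicle, probe sets called were 49 weighted at day 35, 4 weighted on the mean of both days and 1 there without the outlying array before normalization, and 0 to 1 with 1 array left out. The median difference of the 33 genes at day 35 was 0.15 without normalization and 0.16 with the outlying array left out before normalization, from -0.32 to 0.16 with 1 array left out. Between days in nandrolone rats it was 0.15 weighted, 0.13 without the outlying array before normalization and -0.37 to 0.13 with 1 array left out. The interaction's median was 0.10 without it and -0.32 to 0.10 with 1 left out. Sign changes at day 35, none of them called, were Acadm (-0.078 median centred, -0.19 to 0.34 with 1 array left out, lowest without nandrolone replicate 2), Cpt1b (-0.60 to 0.16 with 1 array left out, highest without the outlying array, and 0.17 with it left out before normalization), Fabp3 (0.21 without normalization, 0.66 weighted, -0.71 to 0.74 with 1 array left out, and 0.74 with the outlying array left out before normalization), Hadha (-0.12 median centred, -0.056 mean of probe sets, -0.22 to 0.25 with 1 array left out) and Pdk4 (-0.10 median centred, -0.32 to 0.34 with 1 array left out). Between days in vehicle rats they were Acaa2 (-0.026 with the mean of probe sets) and Acadm (-0.038 without normalization, -0.049 median centred, -0.024 to 0.074 with 1 array left out), and on the mean of both treatments Acaa2 (-0.14 with the mean of probe sets). Leaving out arrays or fitting fewer groups also lowers the number of samples; the cause was otherwise not tested. With 3 arrays a group, small differences could not be detected.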

Other observations

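Of the further fat-handling genes, Scd had the smallest p between days in nandrolone rats and G0s2 the smallest p of the interaction, and neither passed. Scd, which desaturates fatty acids, gave 10.36, 9.94 and 10.98 at nandrolone day 35, against 7.86, 8.11 and 9.57 at nandrolone day 7, a difference of 1.92 ± 0.53 (adjusted p = 0.12, limma). Without nandrolone day 35 replicate 3, its highest array, the Scd difference was 1.64 (adjusted p = 0.23, limma). G0s2, an inhibitor of the lipase Pnpla2, gave 8.04, 9.44 and 8.43 under nandrolone at day 35, against 7.46, 7.90 and 7.28 under vehicle, a difference of 1.09 ± 0.36 (adjusted p = 0.56), and its interaction of nandrolone and day was 1.76 ± 0.51 (adjusted p = 0.93).

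Slc27a1, a fatty acid transport protein, had the smallest p at day 7 among the further genes. Its signals were 8.50, 8.16 and 8.15 under nandrolone at day 7, against 7.65, 7.73 and 7.56 under vehicle, without overlap, a difference of 0.62 ± 0.26 (adjusted p = 1). Klf15 and Prkag3, which rose between days in vehicle rats, were lower under nandrolone at day 35. Klf15 gave 10.40, 9.84 and 9.89 against 10.82, 10.75 and 10.62 under vehicle, a difference of -0.69 ± 0.19 (adjusted p = 0.56), and Prkag3 gave 11.84, 11.19 and 11.72 against 12.72, 12.05 and 12.51, a difference of -0.84 ± 0.23 (adjusted p = 0.56). Neither pair of groups overlapped, and neither difference passed. Without nandrolone day 35 replicate 3 the differences were -0.61 for Klf15 and -0.91 for Prkag3, and again neither passed.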
